A study of Homo sapiens with 5 samples.

Results

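The genes of the BCL2 family, the caspases with their inhibitors, and the death receptors with their adaptors were described in BXPC3 and Miapaca pancreatic cancer cells treated with siRNA against LYNX1. Members were the probes whose gene symbol in the array annotation is one of 39 listed genes and which at least 1 of the 5 arrays detected, at a detection p under 0.01. Of the 39 genes, 37 had a listed probe and 34 had a detected one, beside 12924 genes detected on at least 1 array in all. The 34 genes were covered by 63 detected probes, and 19 of them by more than 1. HRK, BMF and FAS had probes that were not detected on any array. BIRC3 and RIPK1 were not analysed here. The smallest detection p of a gene just inside the limit was 0.00714 for BCL2A1, and that of the gene just outside was 0.0147 for HRK.

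RNA was measured on Illumina BeadChip arrays in Miapaca and BXPC3, established lines from human pancreatic adenocarcinoma, with 1 array in each of 5 groups. Miapaca cells received an siRNA against the LYNX1 open reading frame (ORF siRNA), an siRNA against its 3′ untranslated region (3UTR siRNA) or a non-targeting control siRNA. BXPC3 cells received the ORF siRNA or the control siRNA. In every group siRNA was added 24 h after seeding and cells were harvested for RNA when exposure had lasted 72 h. Miapaca cells were kept in DMEM and had 4 µl of lipofectamine RNAiMAX with siRNA at 60 pM as the labels state it, whereas BXPC3 cells were kept in RPMI-1640 and had 14 µl of Xtreme gene9 with 200 nM. Medium, reagent and dose therefore went with the line and cannot be told apart from it. No group had a replicate, so a difference between 2 arrays has no error of its own and no p-value. The number of arrays limits the precision.

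In the mitochondrial pathway of apoptosis, pro-survival BCL2 proteins hold back BAX and BAK, and BH3-only proteins release that hold in response to stress. Pores formed by BAX and BAK let cytochrome c out of mitochondria, which joins APAF1 and caspase-9 in the apoptosome. In the other pathway, ligands such as TRAIL bind death receptors that recruit FADD and caspase-8, and cleaved BID links that signal to mitochondria. Inhibitor of apoptosis proteins and c-FLIP restrain caspases, and pancreatic cancers are known for resistance to death ligands.

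LYNX1, the targeted gene, is a membrane-anchored protein that binds nicotinic receptors. Its 2 probes had a smallest detection p of 0.0228, so it was not detected on any array and the knockdown could not be checked. Mean deposited intensity was 355 on the Miapaca ORF array and 343 on the 3UTR array, against 463 on the Miapaca control array. It was 361 on the BXPC3 ORF array and 366 on the BXPC3 control array. Probes detected at a p under 0.01 numbered 16622 to 18205 per array. All 6 epithelial markers were detected in BXPC3. KRT8 read 1460 and 1339 on the BXPC3 ORF and control arrays, against 6940, 4528 and 5195 on the Miapaca ORF, 3UTR and control arrays. KRT18 read 208 and 213 in BXPC3, against 283, 194 and 265 in Miapaca, and KRT19 4062 and 4474, against 1698, 528 and 827. After normalization KRT19 was 3.33-fold, KRT8 1.96-fold and KRT18 1.81-fold higher on the Miapaca ORF array than on its control. In Miapaca, EPCAM, CDH1 and KRT7 were not detected on any of the 3 arrays. Of 2 mesenchymal markers, the filament VIM read 16504 to 19424 in Miapaca, against 154 and 199 in BXPC3. The other, ZEB1, was not detected on any array. Of 6 fibroblast markers, 2 were detected: COL1A2 at 1962 to 2413 in Miapaca and 98.1 and 130 in BXPC3, and COL3A1 on 1 array. Of 4 endothelial markers CDH5 was detected, on 3 arrays at up to 164, and of 4 blood markers CD14, on all 5 at 149 to 249. None of 3 acinar and 2 endocrine markers was detected. The part of these genes' cell types in the results was not tested.

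Levels are given as log2 intensity after background correction and quantile normalization of the 5 arrays together. On this scale the lowest signal called detected lay between 4.42 and 4.58, depending on the array. Levels of different genes come from different probes and were not compared with each other. A gene detected on only the brighter of 2 arrays has a bound, given as at least that fold, against the higher of its dim value and the lowest detected signal there. Each gene was represented by its brightest detected probe, judged by the mean of the 5 arrays, and 26 of the 34 members were detected by it on all 5 arrays.

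**Figure D1:**
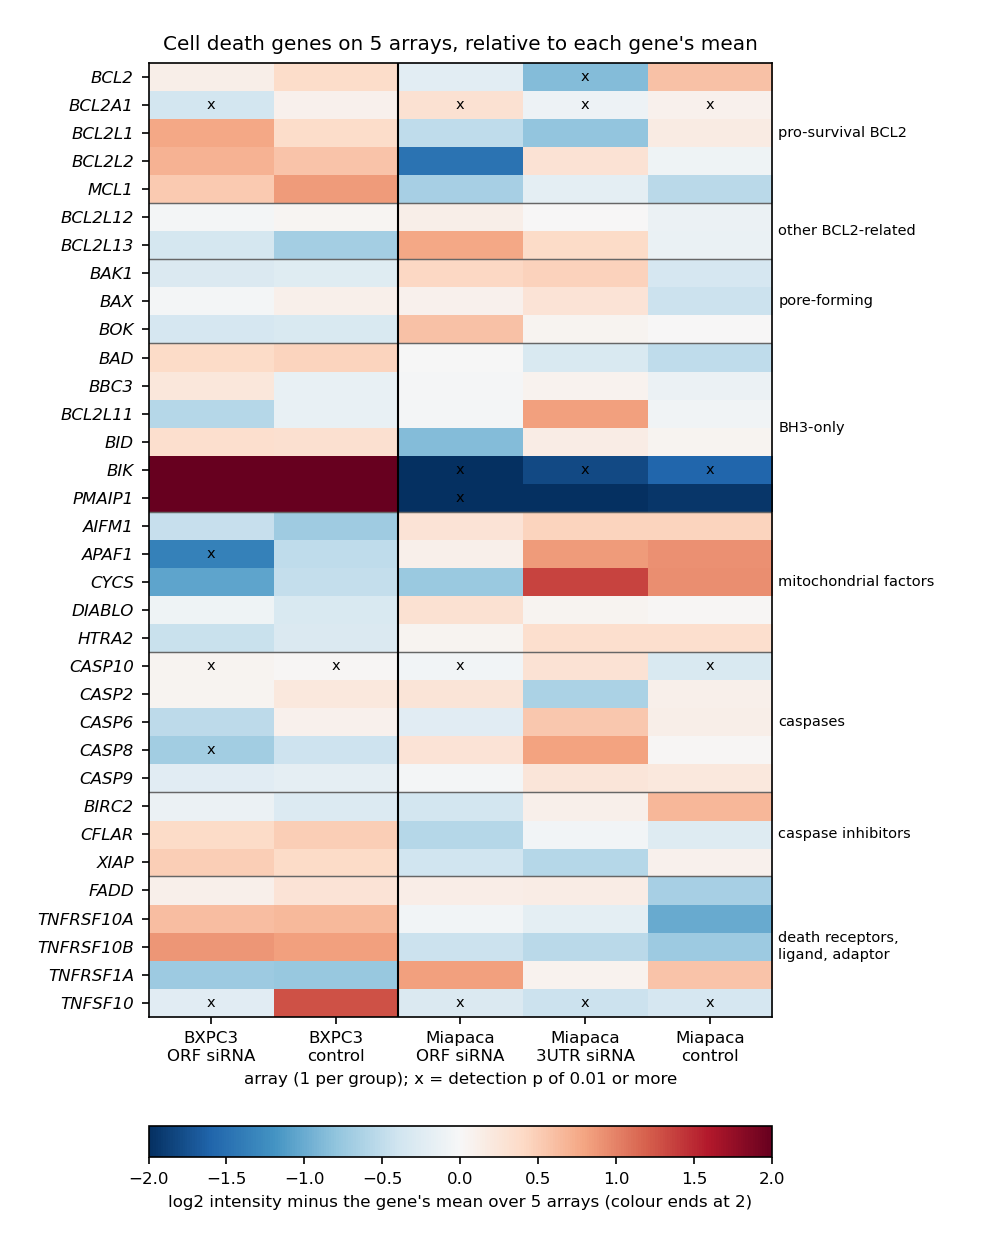
Log2 intensity of the 34 detected members on each of the 5 arrays (columns), minus the gene's own mean over the 5 arrays, with rows grouped by role and crosses where the detection p was 0.01 or more. BIK and PMAIP1 run past the upper end of the colour scale on the BXPC3 arrays, where BIK read 9.45 and 9.09, against 4.47 to 4.96 on the Miapaca arrays.

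With the ORF siRNA in Miapaca, 3 of 30 measured members were at least 2-fold lower than on the control array and 0 were 2-fold higher. They were BCL2L2, CYCS and BIRC2. Over all 10930 genes measured in this comparison, 5.49% were at least 2-fold lower and 5.08% at least 2-fold higher. With the 3UTR siRNA, 1 of 31 members, BCL2, was at least 2-fold lower and 0 were higher, beside 4.63% and 4.21% of 10890 genes. At a 1.5-fold limit 5 members were higher and 7 lower with the ORF siRNA, beside 16.7% and 16.2% of genes. On the 3UTR array 6 were higher and 4 lower, beside 15.5% and 15.2%. The median difference of the members was −0.05 on the ORF array and 0.18 on the 3UTR array, beside 0.02 and 0.00 for all genes. Counts this small stand beside those shares as a description only. As RNA came from whole cultures, fewer cells with a transcript and less RNA per cell cannot be told apart. Both comparisons use the same control array, so their values are set side by side and likeness between them is no result. The middle 95% of all genes ran from −1.30 to 1.21 on the log2 scale with the ORF siRNA and from −1.20 to 1.13 with the 3UTR siRNA. The control array was also the brightest of the 5 before normalization, and its part in these differences was not tested.

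**Figure D2:**
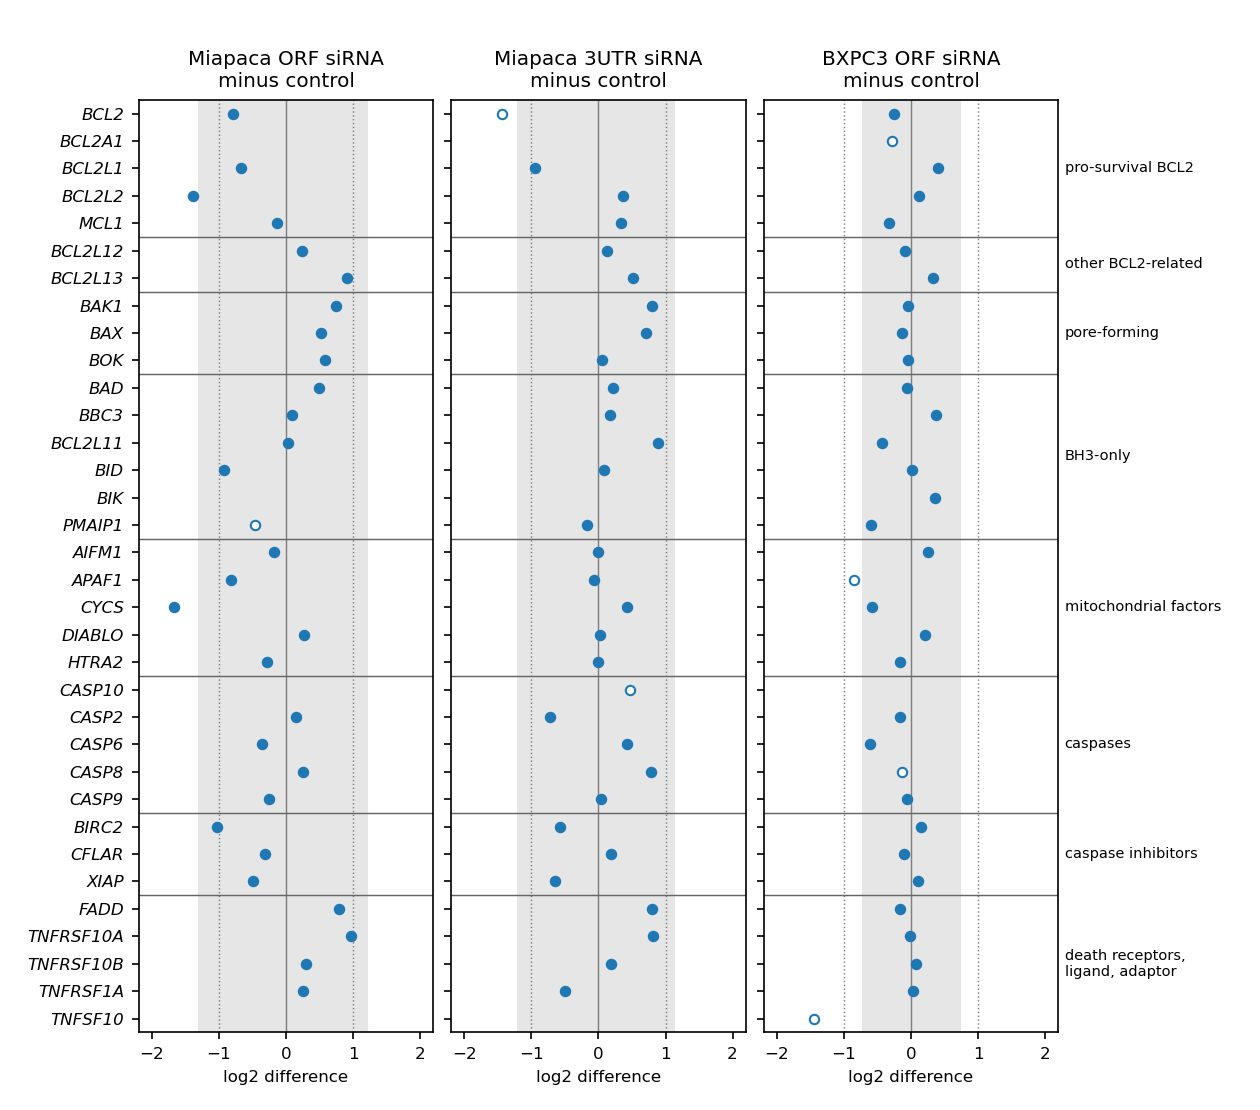
Log2 difference of each measured member between an siRNA array and the control array of its line, with 1 panel per comparison, dotted lines at 2-fold and grey bands holding the middle 95% of all genes. Open circles are bounds or rest on 1 detected array. In Miapaca, BCL2L2 and CYCS with the ORF siRNA and BCL2 with the 3UTR siRNA lie outside the band; in BXPC3, TNFSF10 and APAF1 do.

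Among the pro-survival genes, BCL2L2, which encodes BCL-w, stood at 7.54 on the ORF array and 9.29 on the 3UTR array, against 8.92 on the control array. The ORF array alone was low. It lay 2.62-fold below the control array, a log2 difference of −1.39, and 1.97% of all genes had a lower value. The 3UTR siRNA gave 0.37. BCL2L2 was past 2-fold with the ORF siRNA in all 10 settings of normalization, background, probe choice and detection.

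BCL2L1, which encodes BCL-xL, read 10.11 on the ORF array and 9.83 on the 3UTR array, against 10.78 on the control array. Both siRNA arrays lay below the control, at log2 differences of −0.67 and −0.95, short of 2-fold. A dimmer BCL2L1 probe went the same way at −0.19 and −0.68. BCL2 itself, the founding member of the family, read 5.24 with the ORF siRNA and 6.03 on the control array, and was not detected with the 3UTR siRNA. Its log2 difference with the ORF siRNA was −0.79. With the 3UTR siRNA it was at least 2.73-fold lower. Of the Miapaca arrays, only the control showed a signal for a different BCL2 probe, and another, made to a different transcript, was detected on the ORF array only. The bound for BCL2 was past 2-fold in 6 of 9 settings.

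MCL1, a short-lived pro-survival protein, stood at 8.75 with the ORF siRNA, 9.23 with the 3UTR siRNA and 8.88 on the control array. Its differences of −0.13 and 0.34 were of opposite sign on a dimmer probe, at 0.54 and −0.02. BCL2A1, which NF-kB induces, was not detected on any Miapaca array, and in BXPC3 on the control array only, at 4.78. The median of the 4 measured pro-survival genes with the ORF siRNA was −0.73, and it stayed below 0 in all 10 settings, at −1.13 to −0.32. All 4 single values were below 0 in the setting used here, beside 5310 of 10930 genes. With the 3UTR siRNA 2 of the 4 were below 0, beside 5438 of 10890 genes.

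The pore-forming genes lay above the control array with both siRNAs, each by less than 2-fold. Of all genes, 5611 of 10930 lay above it with the ORF siRNA and 5445 of 10890 with the 3UTR siRNA. BAK1 read 6.96 on the ORF array and 7.01 on the 3UTR array, against 6.21 on the control array, or 0.75 and 0.80 on the log2 scale. BAX read 9.93 and 10.12, against 9.40, or 0.53 and 0.72. BOK, a BAX relative found largely on the endoplasmic reticulum, read 8.04 and 7.51, against 7.46, or 0.59 and 0.05. The median of the 3 genes was 0.59 on the ORF array and 0.72 on the 3UTR array. Both medians stayed above 0 in all 10 settings, at 0.05 to 0.60 and 0.16 to 0.78. A BAX probe made to another transcript disagreed. It read 8.01 on the ORF array and 6.85 on the 3UTR array, against 7.94 on the control array, so its 3UTR difference was −1.09 where the brighter probe gave 0.72. BCL2L13, a BCL2 relative of the outer mitochondrial membrane, read 11.50 and 11.11, against 10.59, or 0.91 and 0.52.

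Of the BH3-only genes, BID, which caspase-8 cleaves, read 7.63 on the ORF array and 8.63 on the 3UTR array, against 8.55 on the control array. The ORF array alone was low, at a log2 difference of −0.92 beside 0.08 for the 3UTR siRNA. A second BID probe gave −0.52 and 0.65. Another one, near the detection limit, gave 0.62 with the ORF siRNA. BCL2L11, which encodes BIM, read 5.88 and 6.73, against 5.85, so the 3UTR array stood at 0.88 and the ORF array at 0.03. A dimmer BCL2L11 probe was detected on both siRNA arrays and not on the control array. Another read 5.69 on the 3UTR array and 5.16 on the control array, and was not detected on the ORF array. BAD, a BH3-only protein regulated by phosphorylation, stood at 0.50 and 0.21, and another BAD probe gave 1.17 and 1.06. BBC3, which encodes the p53 target PUMA, stood at 0.10 and 0.18.

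PMAIP1, which encodes NOXA, a p53 target that binds MCL1, was close to the detection limit in Miapaca. It read 4.98 with the 3UTR siRNA and 5.14 on the control array, and was not detected with the ORF siRNA. BIK was not detected on any Miapaca array. Among the 6 measured p53-induced members (BBC3, PMAIP1, BAX, APAF1, BID and TNFRSF10B), 3 lay above the control on the ORF array. On the 3UTR array 4 did so, and 0 passed 2-fold. Over all genes, 5611 of 10930 and 5445 of 10890 lay above the control in these comparisons. The NF-kB-induced survival members measured were CFLAR and BCL2L1. Of these 2 lay below the control on the ORF array, beside 5310 of 10930 genes. On the 3UTR array 1 did, beside 5438 of 10890 genes.

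CYCS, cytochrome c, had the lowest value of all members with the ORF siRNA. It read 5.46 on the ORF array and 7.55 on the 3UTR array, against 7.13 on the control array. The ORF array was 3.19-fold lower than the control, where 0.897% of all genes had a lower value, and the 3UTR array stood at 0.42. CYCS was measured by 1 probe and was past 2-fold in 8 of 10 settings, at −2.15 to −0.83. APAF1, the scaffold of the apoptosome, read 6.69 on the ORF array and 7.44 on the 3UTR array, against 7.51, or −0.82 and −0.06. DIABLO and HTRA2, mitochondrial proteins that antagonise inhibitors of apoptosis, stood between −0.28 and 0.27 with both siRNAs by their chosen probes. The dimmest of 3 DIABLO probes gave 0.34 on the ORF array and 1.01 on the 3UTR array. AIFM1, a mitochondrial flavoprotein, stood at −0.17 and −0.01. Of the 5 mitochondrial genes, 4 lay below the control on the ORF array, beside 5310 of 10930 genes. On the 3UTR array 3 did, beside 5438 of 10890 genes. The median of the 5 genes was −0.28 with the ORF siRNA and below 0 in all 10 settings, at −0.86 to −0.19. With the 3UTR siRNA it was −0.003, at −0.59 to 0.12 over the 10 settings and above 0 in 2 of them.

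Of the caspases, CASP2, an initiator that the PIDDosome activates, read 10.83 on the ORF array and 9.95 on the 3UTR array, against 10.68 on the control array. The 3UTR array alone was low, at −0.73 beside 0.15 for the ORF siRNA. A second CASP2 probe gave −1.03 with the 3UTR siRNA and 0.21 with the ORF siRNA. One more probe was not detected on the 3UTR array and gave 0.26 with the ORF siRNA. CASP8, the initiator at death receptors, read 5.32 and 5.86, against 5.07, and its 3UTR difference was 0.78. Another CASP8 probe gave 0.53 on the ORF array and 0.95 on the 3UTR array. CASP6, an effector caspase, stood at −0.35 and 0.42, and CASP9, the initiator of the apoptosome, at −0.25 and 0.04. CASP10, a relative of CASP8, was detected in Miapaca on the 3UTR array only, and by a dimmer probe on the control array only.

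Each measured caspase inhibitor lay below the control array with the ORF siRNA, beside 5310 of 10930 genes. BIRC2, a ubiquitin ligase of TNF receptor complexes, read 9.11 on the ORF array and 9.58 on the 3UTR array, against 10.15 on the control array. It was 2.05-fold lower with the ORF siRNA and stood at −0.57 with the 3UTR siRNA. A dimmer BIRC2 probe gave −0.75 on the ORF array and 0.20 on the 3UTR array. BIRC2 was past 2-fold in 5 of 10 settings, at −1.53 to −0.89. XIAP, which binds caspases directly, read 5.01 and 4.85, against 5.51, or −0.49 and −0.66. CFLAR, which encodes c-FLIP, stood at −0.32 and 0.19. The median of the 3 inhibitors was −0.49 on the ORF array and −0.57 on the 3UTR array. Both stayed below 0 in all 10 settings, at −0.84 to −0.17 and −0.90 to −0.19.

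Of the 7 listed receptors, ligand and adaptors 4 were measured. With the ORF siRNA 4 lay above the control array, beside 5611 of 10930 genes. With the 3UTR siRNA 3 did, beside 5445 of 10890 genes. None passed 2-fold. TNFRSF10A, a TRAIL receptor, read 8.56 on the ORF array and 8.42 on the 3UTR array, against 7.60 on the control array, or 0.96 and 0.82. FADD, the adaptor that recruits caspase-8, read 9.76 and 9.77, against 8.97, or 0.79 and 0.80. The siRNA arrays of both genes lay close together and above the control. TNFRSF10B, the other signalling TRAIL receptor, stood at 0.29 and 0.19, and a dimmer probe for another transcript gave 0.92 and 1.05. TNFRSF1A, the main TNF receptor, read 10.72 and 9.97, against 10.47, or 0.25 and −0.50. TNFSF10, which encodes TRAIL, was not detected on any Miapaca array. The median of the 4 measured genes was 0.54 with the ORF siRNA, above 0 in all 10 settings, at 0.07 to 0.70. With the 3UTR siRNA it was 0.50 and above 0 in 9 of 10 settings, the exception being median scaling over all probes at −0.07.

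Another scaling moved all genes together in these comparisons. Median scaling over all probes put the median of all genes at −0.40 on the ORF array and −0.46 on the 3UTR array, and median scaling over the probes detected on all arrays put it at 0.15 and 0.15. The genes past 2-fold with the ORF siRNA then split into 189 higher and 1821 lower under the first scaling and 1016 higher and 486 lower under the second, against 555 and 600 here. On the 3UTR array the splits were 85 and 1980, and 966 and 369, against 458 and 504 here. Relative to the median of all genes, the pore-forming and receptor medians stayed above it and the inhibitor medians below it in all 10 settings with both siRNAs. The pro-survival median stayed below it in all 10 settings with the ORF siRNA and in 9 of 10 with the 3UTR siRNA. These comparisons share the Miapaca control array. In BXPC3, which has its own control, the ORF siRNA put the pore-forming median above that of all genes in 0 of 10 settings. There the receptor and pro-survival medians were above it in 1 of 10 settings each, and the inhibitor median in 9.

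The siRNA arrays of Miapaca were also set against each other, which leaves the control array out of the subtraction. On the ORF array 3 of 31 members were at least 2-fold lower than on the 3UTR array and 0 were higher, beside 4.9% and 5.17% of 10730 genes. At a 1.5-fold limit 9 members passed, beside 16% of genes higher and 14.7% lower. CYCS was 4.27-fold lower, BCL2L2 3.38-fold lower and BID 2.01-fold lower with the ORF siRNA. BID lay at the 2-fold limit, passed it in 5 of 10 settings, and had a second probe at −1.16. CASP2 stood at 0.88, with a second probe at 1.24 and another detected on the ORF array and not on the 3UTR array. TNFRSF1A stood at 0.75, while CASP6 stood at −0.78 and BCL2L11 at −0.85. A dimmer BCL2L11 probe opposed this at 0.45, while another read 5.69 on the 3UTR array and was not detected on the ORF array. The other CASP6 probe detected on both arrays stood at 0.00. FADD and BAK1, at −0.01 and −0.05, read alike on the siRNA arrays.

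In BXPC3, of 33 measured members, 1 was at least 2-fold lower and 0 were higher, beside 0.452% and 0.638% of 11293 genes. The middle 95% of all genes ran from −0.71 to 0.74. At a 1.5-fold limit 0 members were higher and 5 lower, beside 5.13% and 4.85% of genes. The gene past 2-fold was TNFSF10, detected at 5.94 on the control array and not on the ORF array, and its bound passed 2-fold in 6 of 9 settings. APAF1 was likewise detected on the control array only, at 6.07, and it was at least 1.79-fold lower. CASP6 read 6.34 with the ORF siRNA and 6.96 on the control array, a difference of −0.61, while 2 other CASP6 probes gave −0.07 and 0.17. PMAIP1 read 10.02, against 10.61, or −0.60, and its dimmer probe gave 0.16. CYCS read 5.14, against 5.72, or −0.59.

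By their chosen probes, other members in BXPC3 lay within 0.5 of the control on the log2 scale. Dimmer probes of HTRA2, AIFM1 and TNFRSF10B gave −0.71, −0.63 and −0.62, where the chosen ones gave −0.16, 0.25 and 0.07. Another TNFRSF10B probe gave −0.10. BCL2L1 read 11.39 with the ORF siRNA and 10.99 on the control array, or 0.40, and its other probe gave 0.57. BIK, whose product sits on the endoplasmic reticulum, read 9.45, against 9.09, or 0.35. BBC3 stood at 0.37, BCL2L13 at 0.32 and BCL2L11 at −0.43. The members near 0 included FADD at −0.17, BAK1 at −0.05, TNFRSF10A at −0.02 and TNFRSF1A at 0.03. BCL2L12 stood at −0.09 in BXPC3, while its Miapaca values were 0.23 on the ORF array and 0.13 on the 3UTR array. The median of the members was −0.06, beside −0.01 for all genes.

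The ORF siRNA comparisons in Miapaca and BXPC3 share no array. Of 27 members detected on all 4 arrays, 7 were lower in both lines, 5 were higher in both and 15 went opposite ways. That is 44.4% in the same direction, beside 57.9% of 8449 genes. CYCS was low with the ORF siRNA in both lines, at −0.59 in BXPC3 and −1.67 in Miapaca.

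Across all 5 arrays, a limma fit with terms for line and for LYNX1 siRNA against control called no member for the siRNA. It counts both siRNAs as 1 treatment and takes the differences between siRNAs and between lines in response as error, which leaves 2 residual degrees of freedom. At an adjusted p under 0.05 it called 0 of 34 members and 0 of 12924 genes (0%), and the smallest adjusted p was 0.894. At an unadjusted p under 0.05 there were 0 members and 551 genes. The member nearest to that limit was BCL2, at −0.75 with an unadjusted p of 0.0531. Its chosen probe was lower on the siRNA array in each of the 3 comparisons with a control, at −0.26 in BXPC3. A BCL2 probe made to a different transcript opposed this, as it was detected in each line on the ORF array only. One more BCL2 probe stood at −0.25 in BXPC3. Without the Miapaca 3UTR array the fit called 42 genes higher and 58 lower, and without the Miapaca ORF array 6 higher and 10 lower, again with 0 members. Such a fit cannot show that the members did not respond.

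**Figure D3:**
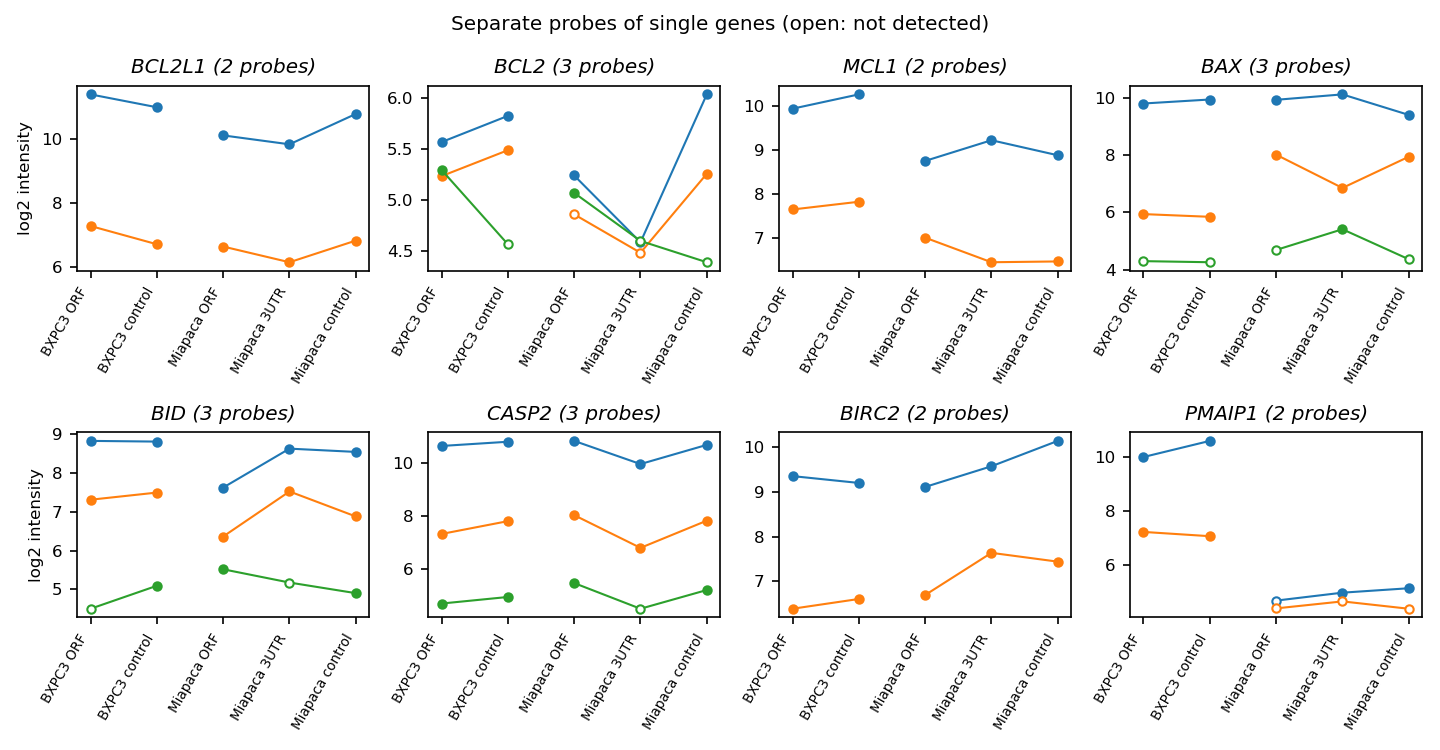
Log2 intensity of every detected probe of 8 members on the 5 arrays, with 1 colour per probe, lines joining arrays of the same cell line and open circles where the detection p was 0.01 or more. The CASP2 probes share a low value on the Miapaca 3UTR array and both PMAIP1 probes are high in BXPC3, while the BAX probes separate on the Miapaca 3UTR array.

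Where a member had more than 1 probe detected on both arrays, the probes did not always go the same way. They had the same sign for 10 of 13 members with the ORF siRNA in Miapaca, 10 of 14 with the 3UTR siRNA and 6 of 15 with the ORF siRNA in BXPC3. They did for 7 of 14 members in the ORF against 3UTR comparison and 9 of 15 between the control arrays of the lines. Over all genes, the median SD between probes of a gene was 0.26, 0.28, 0.16, 0.18 and 0.30 on the log2 scale, in the same order. Differences of that size between arrays are therefore within what separate probes of a gene give.

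The SD of log2 differences over all genes was 1.32 between the control arrays of the lines, beside 0.64 for the ORF siRNA in Miapaca, 0.59 for the 3UTR siRNA and 0.35 for the ORF siRNA in BXPC3. In the same limma fit, 8 of 34 members differed between the lines at an adjusted p under 0.05, 5 higher and 3 lower in BXPC3, beside 13.8% and 12.9% of 12924 genes. PMAIP1, BIK, TNFRSF10B, TNFRSF10A and MCL1 were higher in BXPC3, and APAF1, TNFRSF1A and AIFM1 were lower. Both BXPC3 arrays lay above all 3 Miapaca arrays for 12 members and below them for 10, beside 26.2% and 29.6% of genes. The arrays of a line had different siRNAs and are not replicates of 1 condition. The p-values and SEs rest on a gene's spread between these arrays, moderated toward that of all genes. The prior had 5.38 degrees of freedom, beside 2 residual ones.

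PMAIP1 read 10.02 and 10.61 on the BXPC3 ORF and control arrays. In Miapaca it read 4.69 with the ORF siRNA, below detection, 4.98 with the 3UTR siRNA and 5.14 on the control array. The groups were far apart. The fitted log2 difference was 5.31 ± 0.25 (SE), with an adjusted p of 1.09e-05. A dimmer PMAIP1 probe read 7.24 and 7.08 in BXPC3 and was not detected on any Miapaca array.

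BIK was detected on both BXPC3 arrays, at 9.45 and 9.09, and on no Miapaca array. The BXPC3 mean was at least 23.1-fold above the Miapaca mean in the setting used here. The fitted log2 difference, which uses the undetected Miapaca values, was 4.54 ± 0.28 (SE), with an adjusted p of 3.42e-05. That difference ran from 2.75 to 4.84 over 15 settings, which include leaving out each array. The other BH3-only genes were closer between the lines. BAD had a fitted difference of 0.71 ± 0.26 (SE) with an adjusted p of 0.0834, and BID of 0.52 ± 0.35 with an adjusted p of 0.322. BCL2L11 stood at −0.59 and BBC3 at 0.10, neither past the threshold.

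The signalling TRAIL receptors were both higher in BXPC3. TNFRSF10B read 10.98 and 10.91 in BXPC3, against 9.66, 9.56 and 9.36 on the Miapaca ORF, 3UTR and control arrays, a fitted difference of 1.45 ± 0.24 (SE) with an adjusted p of 0.00431. TNFRSF10A read 9.23 and 9.26, against 8.56, 8.42 and 7.60, a difference of 1.14 ± 0.29 with an adjusted p of 0.0258. TNFRSF1A went the other way. It read 9.17 and 9.13 in BXPC3, against 10.72, 9.97 and 10.47 in Miapaca, a difference of −1.24 ± 0.30 with an adjusted p of 0.0204. FADD, which serves both kinds of receptor signal, differed by 0.38 ± 0.30 with an adjusted p of 0.396. CFLAR differed by 0.72 ± 0.27 with an adjusted p of 0.0891.

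MCL1 was the pro-survival gene called between the lines. It read 9.95 and 10.27 in BXPC3, against 8.75, 9.23 and 8.88 in Miapaca, a difference of 1.14 ± 0.28 (SE) with an adjusted p of 0.0202. Its other probe was also higher on both BXPC3 arrays, at 7.65 and 7.82, against 6.44 and 6.46 on the Miapaca 3UTR and control arrays, and it stood at 0.54 between the Miapaca ORF and control arrays. BCL2L1 differed by 0.90 ± 0.33 with an adjusted p of 0.0855, and BCL2L2 by 1.02 ± 0.50 with an adjusted p of 0.177. BAK1, BAX and BOK had fitted differences of −0.38, 0.10 and −0.51, none past the threshold. The second BAX probe stood apart from the first, at 5.94 and 5.84 in BXPC3, against 8.01, 6.85 and 7.94 in Miapaca.

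All 5 mitochondrial genes had lower fitted levels in BXPC3 in the setting used here, and 2 passed the threshold. APAF1 read 5.23, below detection, and 6.07 in BXPC3, against 6.69, 7.44 and 7.51 in Miapaca, a fitted difference of −1.66 ± 0.31 (SE) with an adjusted p of 0.0069, which rests on 1 of 2 BXPC3 arrays above background. AIFM1 read 5.86 and 5.61, against 6.59, 6.76 and 6.77, a difference of −0.96 ± 0.25 with an adjusted p of 0.0268. A dimmer AIFM1 probe opposed it, at 5.21 and 5.84 in BXPC3 and detected in Miapaca on the control array only, at 5.13, and with the mean of detected probes AIFM1 stood at −0.10 and was not called. CYCS read 5.14 and 5.72 in BXPC3, against 5.46, 7.55 and 7.13 in Miapaca, and these groups overlapped. HTRA2 and DIABLO differed by −0.63 ± 0.25 and −0.29 ± 0.25. The dimmest DIABLO probe opposed this at 0.82 between the control arrays, where the chosen one and a second stood at −0.33 and −0.39. None of the 5 caspases among the members passed the threshold. CASP8, not detected on the BXPC3 ORF array, had the lowest adjusted p of them, at −0.90 ± 0.31 with an adjusted p of 0.0693. Leaving out the Miapaca control, BXPC3 control or BXPC3 ORF array left 2 calls, PMAIP1 and BIK, and leaving out either Miapaca siRNA array gave 13. Over all 12924 genes, 481 higher and 241 lower were called without the Miapaca control or the BXPC3 control array, and 316 and 113 without the BXPC3 ORF array. Without the Miapaca ORF array they were 2177 and 2214, and without the Miapaca 3UTR array 2243 and 2327. Leaving out either control array gives the same line coefficient and the same residual, so these are not separate checks.

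**Figure D4:**
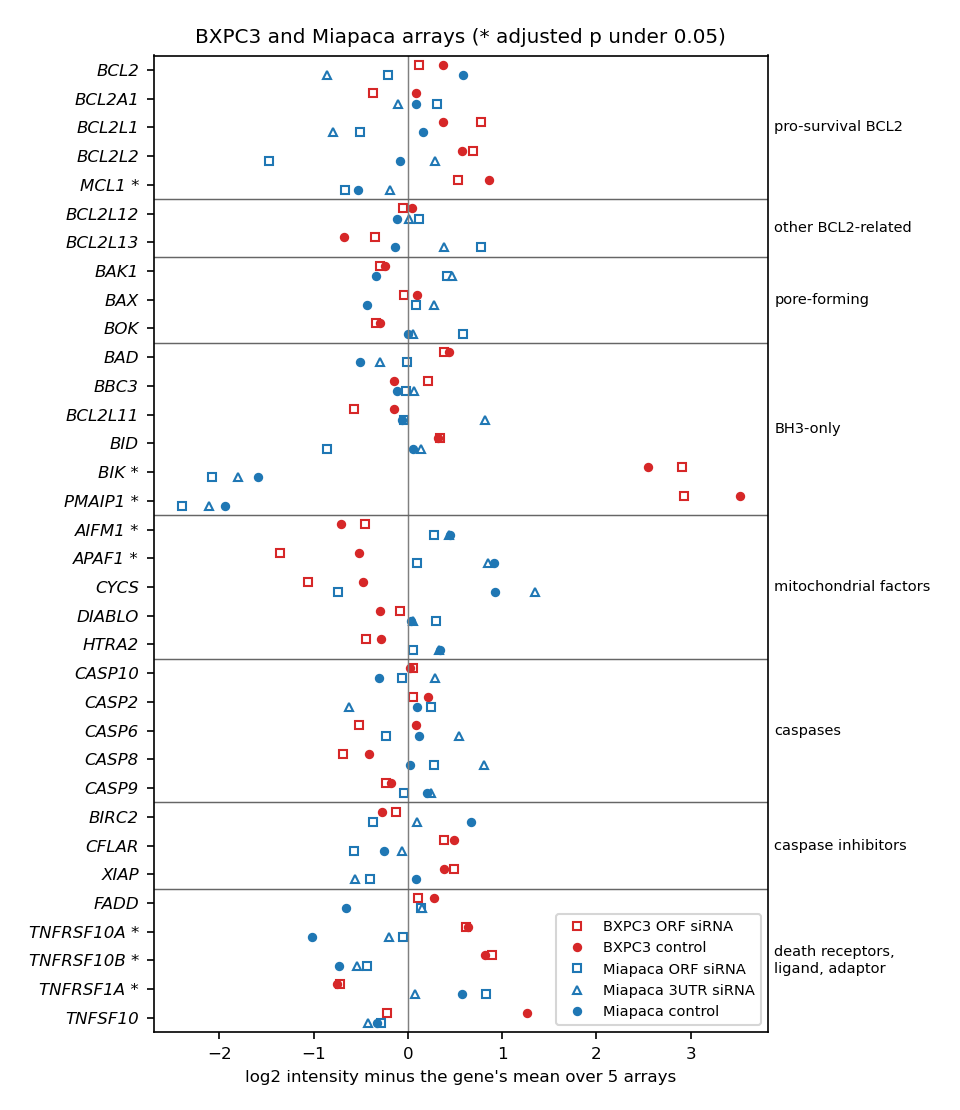
Log2 intensity of each member on the 2 BXPC3 arrays (red) and the 3 Miapaca arrays (blue), minus the gene's mean over all 5, with filled circles for control siRNA and open symbols for siRNA against LYNX1. Stars mark the 8 members with an adjusted p under 0.05 between the lines, among which PMAIP1 and BIK are the farthest apart.

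Between the control arrays alone, 6 of 33 members were at least 2-fold higher in BXPC3 and 4 at least 2-fold lower, beside 14.7% and 14.3% of 11868 genes. Beside PMAIP1, BIK, MCL1 and the signalling TRAIL receptors, the higher ones included TNFSF10. It was at least 2.73-fold higher and detected in BXPC3 on the control array only. Beside APAF1, AIFM1 and TNFRSF1A, CYCS was 2.65-fold lower. Median scaling over all probes made this 4 higher and 6 lower, with the median of all genes at −0.38. At a 1.5-fold limit 10 were higher and 6 lower, beside 24.3% and 27.1% of genes.

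A list of 66 other genes of the death pathways was counted in the same way. With the ORF siRNA in Miapaca, 1 of 42 measured genes was at least 2-fold higher and 1 lower, and with the 3UTR siRNA 2 of 42 were higher and 2 lower, beside the shares of all genes given above for each comparison. TNFRSF1B, the second TNF receptor, was 3.87-fold higher with the ORF siRNA, and OPA1, a fusion protein of the inner mitochondrial membrane, was 2.98-fold lower. With the 3UTR siRNA MLKL, the executor of necroptosis, was 2.61-fold higher and DFFA, the inhibitor of a caspase-activated nuclease, 2.14-fold higher. SHARPIN, a subunit of the linear ubiquitin ligase, was 2.07-fold lower and AVEN, an inhibitor of apoptosis, 2.15-fold lower. In BXPC3 0 of 47 passed 2-fold.

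Between the lines, 13 of 48 other pathway genes were called in the limma fit, 8 higher and 5 lower in BXPC3, beside 26.7% of all genes. The gasdermin GSDMD, a pore former of pyroptosis, was at least 21.7-fold higher in BXPC3 over the 5 arrays, and CASP1, which cleaves it, at least 4.27-fold higher. TNFRSF21, a death receptor, was 40.9-fold higher in BXPC3 between the control arrays. TNFRSF1B was at least 8.37-fold lower in BXPC3 between the control arrays. Its line means over the 5 arrays, which include the Miapaca ORF array where it was high, differed by at least 13.3-fold. Bounds over the 5 arrays compare plain line means, without the siRNA term of the fit, which gave 12.9-fold for TNFRSF1B. Also past 2-fold between the control arrays were GSDME at 4.94-fold, DFFB at 2.41-fold, MLKL at 2.36-fold, OTULIN at 2.07-fold, GSDMC at 4.07-fold or more and BAG1 at 2.89-fold or more, all higher in BXPC3. BNIP3L was 3.24-fold, DNM1L 3.05-fold, OPA1 2.43-fold and AVEN 2.17-fold lower. Between the siRNA arrays of Miapaca, TNFRSF1B (3.52-fold), TNFRSF21 (2.41-fold), SHARPIN (2.04-fold) and ACIN1 (2.03-fold) were higher on the ORF array, and MLKL (2.14-fold) and OPA1 (2.06-fold) were lower.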

How the data were processed

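RNA of 5 groups was measured on Illumina BeadChip arrays, 1 per group. Per the file headers, the deposited table holds a mean intensity and a detection p-value per probe and array, not normalized. The authors' series matrix holds processed intensities whose scale, centring and direction are unstated; their ranks followed the deposited intensities on every array (Spearman's rho at least 0.9998), their column medians were 100.0 to 102, and they served as an alternative. For the software behind both, the version and settings were not given in the sources used here.

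Of the probes, 48106 were analysed and 1 was left out. The platform annotation gave 1 gene symbol to 30113, several to 8 and none to 17985; symbols were updated through RefSeq, by accession for 29077 probes. Intensities were corrected with the normexp model of limma 3.58.1, with the background inferred from the detection p-values and an offset of 16, quantile normalized and taken to log2. The brightest probe detected at a p under 0.01 stood for a gene. With 1 array a group, a difference was counted past 2-fold and has no test. A limma fit with terms for line and LYNX1 siRNA was run over all detected genes, with Benjamini-Hochberg adjustment over all of them. It had 2 residual degrees of freedom. Each gene's variance was moderated toward that of all genes by empirical Bayes, with 5.38 prior degrees of freedom. The fit was tested on simulated data. The labels do not say whether arrays came from separate cultures. The p-values therefore reflect only the spread between these arrays, that of the gene and that of all genes.

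The rule for named genes allowed every member, other pathway genes past 2-fold in a comparison, LYNX1, and EPCAM, KRT19, CDH1 and VIM. KRT7, KRT8, KRT18, ZEB1, COL1A2, COL3A1, CDH5 and CD14 were named from the marker lists after their values were seen. The members and lists were chosen with earlier results of these data known. Settings changed one at a time were the normalization, background correction, offset, probe choice, detection limit and fold limit, and each array was left out of the fit.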

Additional observations from a re-analysis of the deposited data

Results flagged for a closer look

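BCL2L1 and FADD went opposite ways with the ORF siRNA in the cell lines. They were picked because each value was larger than the median SD between probes of a gene, 0.16 in BXPC3 and 0.26 in Miapaca, which is a technical spread and not one between samples. BCL2L1 stood at 0.40 on the log2 scale in BXPC3 and at −0.67 in Miapaca. FADD stood at −0.17 in BXPC3, barely past that limit, and at 0.79 in Miapaca. Each value comes from 1 pair of arrays, and the difference between the lines was not tested. Among the members, 15 of 27 went opposite ways in the lines, beside 3556 of 8449 genes.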

How the results depend on the processing

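The count of members past 2-fold depended on the scaling, the background and the fold limit. In Miapaca with the ORF siRNA it was 3, and became 7 with median scaling over all probes, 1 with the authors' matrix values, 1 without background correction and 12 at a 1.5-fold limit. With the 3UTR siRNA it was 1, and became 5 with median scaling, 4 with median scaling over the probes detected on all arrays, a setting chosen after seeing the data, 10 at 1.5-fold, and 0 with the authors' values, without background correction, with an offset of 50 or with both arrays detected. In BXPC3 it was 1, and became 5 at 1.5-fold and 0 in those same 4 settings. The ORF against 3UTR count of 3 became 9 at 1.5-fold. Between the control arrays the count of 10 became 6 with the authors' values, 6 without background correction and 16 at 1.5-fold. Leaving out 1 array in turn moved the members called between the lines from 8 to a range of 2 to 13, and those called for LYNX1 siRNA stayed at 0. Past 2-fold over all genes, the ORF siRNA gave 164 higher and 197 lower with the authors' values, 146 and 199 without background correction and 249 and 307 with an offset of 50 (Miapaca); the 3UTR siRNA gave 104 and 147, 96 and 141, and 184 and 250, and BXPC3 gave 6 and 1, 5 and 1, and 12 and 2, in the same settings. Of 148 alternatives for single genes between 2 arrays, 116 stayed past 2-fold, 32 did not and 0 reversed, and of 112 in the line fit 91 stayed called, 21 did not and 0 reversed. The cause of these moves was not tested. The 112 alternatives of the line fit include leaving out either control array, which gives the same line fit. No paired analysis was possible because each group had 1 array and the labels carry no replicate numbers. The number of arrays limits every value.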
